A study of Mus musculus with 10 samples.

Results

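Collagens are the trimeric proteins that build most of the extracellular matrix, and each chain has a gene of its own. The chain genes were taken as all gene symbols made of Col, a number, the letter a and a number, which gave 44 of the 24500 genes in the count tables. All 44 are collagen chain genes by name, and all were placed on the mouse reference GRCm38 with the RefSeq annotation. ChIP-seq reads immunoprecipitated with antibodies against H3K27me3 and EZH2 were compared at these genes between 2 genotypes of E14 mouse embryonic stem cells, strain 12910la in the labels. Control cells were wild type. The mutant cells, called ex14D here, carry an in/del in exon 14 of Ezh2 made with CRISPR/Cas9, and were placed in this group by a genotype label that calls them a knock out of that exon. Their sample titles say Ezh2KO, and since the study also made a separate Ezh2 knockout line, which line those titles mean cannot be checked here. Neither genotype was given a treatment in the labels, and whether the ex14D libraries come from 1 clone or several is not given. Each antibody had 2 libraries per genotype, beside 1 input library per genotype, 10 in all. Nothing states that the libraries of a pair came from separate cultures, so the p-values measure the spread between these samples, which may be technical.

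EZH2 is the catalytic subunit of Polycomb repressive complex 2, which places methyl groups on lysine 27 of histone H3. The trimethylated form, H3K27me3, marks silent developmental genes in embryonic stem cells and sits mainly at promoters rich in CpG dinucleotides. Collagen chains are used by differentiated tissues such as cartilage, bone, skin and nerve, except for the collagen IV chains of basement membranes, which appear in the early embryo. Fibrillar chains make the load-bearing fibrils, FACIT chains decorate them, collagen VI makes beaded filaments, and collagens VIII and X make open networks. Transmembrane collagens span the cell membrane, and multiplexins lie at basement membranes.

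Gene reads came to 594289 and 937207 in the H3K27me3 libraries of control cells, 1450937 and 1248018 in those of ex14D cells, 409371 and 416778 in the control and ex14D inputs, and 13628137 to 18403892 in the EZH2 libraries. H3K27me3 and input reads were counted in 1 kb windows centred on the 5′ most start site, whereas EZH2 counts followed gene length. The collagen genes held 2958 to 7126 reads per H3K27me3 library and 0 to 38 input reads per gene, with a median of 19, so counting error in the single input moves every ratio below. ChIP-seq cannot check the expression of a gene, and the Ezh2 genotype was not checked here. Of 6 genes active in embryonic stem cells, Pou5f1, Nanog, Sox2, Zfp42 and Esrrb lay below input in all 4 H3K27me3 libraries, and Klf4 lay above it. Of the 3 of these genes tested for H3K27me3, 1 changed, Klf4, with a log2 fold change of -0.88 (standard error 0.28, edgeR adjusted p = 0.0439). For EZH2, 2 were tested, and Klf4 was lower (log2 fold change -1.45, standard error 0.16, edgeR adjusted p = 0.00398) while Nanog did not pass.

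RefSeq promoter sequences, running from 250 bases before to 50 bases after the start, were matched to 35 of the 44 genes. The 6 shown hold genes with more and with less H3K27me3, among them Col27a1, Col17a1 and Col8a2, which changed for one of the antibodies. Only bases before the start that lie in no exon are given, 5′ to 3′ on the gene's strand, and capitals mark each CG. Col8a2, a chain of the corneal Descemet membrane, is read from chr4:126286544-126286793 of GRCm38.p6 on the forward strand, and Col13a1, a transmembrane collagen of the neuromuscular junction, from chr10:61979207-61979358 on the reverse strand. Both promoters had a peak in all 4 H3K27me3 libraries. Col27a1, a fibrillar chain of cartilage, comes from chr4:63215162-63215317 on the forward strand. Col1a2, a chain of collagen I, the fibril of bone and tendon, comes from chr6:4505368-4505617 on the forward strand and carried less of the mark. Col17a1, the hemidesmosome collagen of skin, comes from chr19:47692043-47692292 on the reverse strand, and Col3a1, the fibrillar chain of skin and vessels, from chr1:45311288-45311537 on the forward strand. The stretches hold 24 CG in Col8a2, 11 in Col13a1, 7 in Col27a1, 11 in Col1a2, 2 in Col17a1 and 0 in Col3a1. They differ in length, with 152 bases in Col13a1, 156 in Col27a1 and 250 in the others, so these counts are not directly comparable. Over the whole 300-base promoters the counts are 32, 29, 18, 13, 5 and 0 in the same order.
Col8a2: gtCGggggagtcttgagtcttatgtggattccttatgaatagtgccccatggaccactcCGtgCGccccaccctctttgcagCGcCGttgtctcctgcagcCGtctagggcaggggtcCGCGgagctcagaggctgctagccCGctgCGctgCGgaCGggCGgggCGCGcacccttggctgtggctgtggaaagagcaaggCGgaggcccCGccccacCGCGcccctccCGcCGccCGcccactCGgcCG
Col13a1: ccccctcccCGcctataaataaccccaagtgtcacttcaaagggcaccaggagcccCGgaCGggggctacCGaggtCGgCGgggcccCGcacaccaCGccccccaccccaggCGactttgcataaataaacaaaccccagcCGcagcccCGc
Col27a1: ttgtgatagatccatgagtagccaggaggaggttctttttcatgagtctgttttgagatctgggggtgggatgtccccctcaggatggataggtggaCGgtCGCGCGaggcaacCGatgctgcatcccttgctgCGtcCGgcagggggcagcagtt
Col1a2: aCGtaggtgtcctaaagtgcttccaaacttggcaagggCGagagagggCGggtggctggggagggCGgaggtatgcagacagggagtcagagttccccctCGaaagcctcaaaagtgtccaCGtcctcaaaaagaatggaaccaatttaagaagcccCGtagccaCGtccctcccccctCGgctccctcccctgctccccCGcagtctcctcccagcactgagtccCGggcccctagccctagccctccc
Col17a1: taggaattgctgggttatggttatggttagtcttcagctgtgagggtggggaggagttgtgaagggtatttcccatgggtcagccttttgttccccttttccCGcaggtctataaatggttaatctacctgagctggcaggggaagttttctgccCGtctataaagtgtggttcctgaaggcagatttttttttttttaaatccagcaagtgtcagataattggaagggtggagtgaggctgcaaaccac
Col3a1: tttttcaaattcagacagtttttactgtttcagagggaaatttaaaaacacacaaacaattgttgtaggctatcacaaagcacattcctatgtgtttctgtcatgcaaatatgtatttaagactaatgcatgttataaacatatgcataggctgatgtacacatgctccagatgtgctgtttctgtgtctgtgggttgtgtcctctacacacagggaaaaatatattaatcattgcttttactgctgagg

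The first question was which collagen promoters carry H3K27me3 in control cells. The level of each library is given as log2((CPM + 1)/(input CPM + 1)), with CPM as reads per 1000000 reads on genes and the input of the same genotype, and a promoter was taken as enriched where this reached 1, a 2-fold excess, in both libraries of a genotype. By this rule 16 of 44 collagen promoters were enriched in control, where 11.3% of all 24500 genes were, and 13 in ex14D, where 9.14% were. Of these, 11 were enriched in both genotypes. Another 26 were enriched in neither, and 11 lay below input in all 4 libraries. The call at Col4a1 rests on 0 input reads in control. At a 4-fold ratio the order of the genotypes turns, with 8 in control against 9 in ex14D. No test was made of these ratios, since the input has 1 library per genotype.

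**Figure D1:**
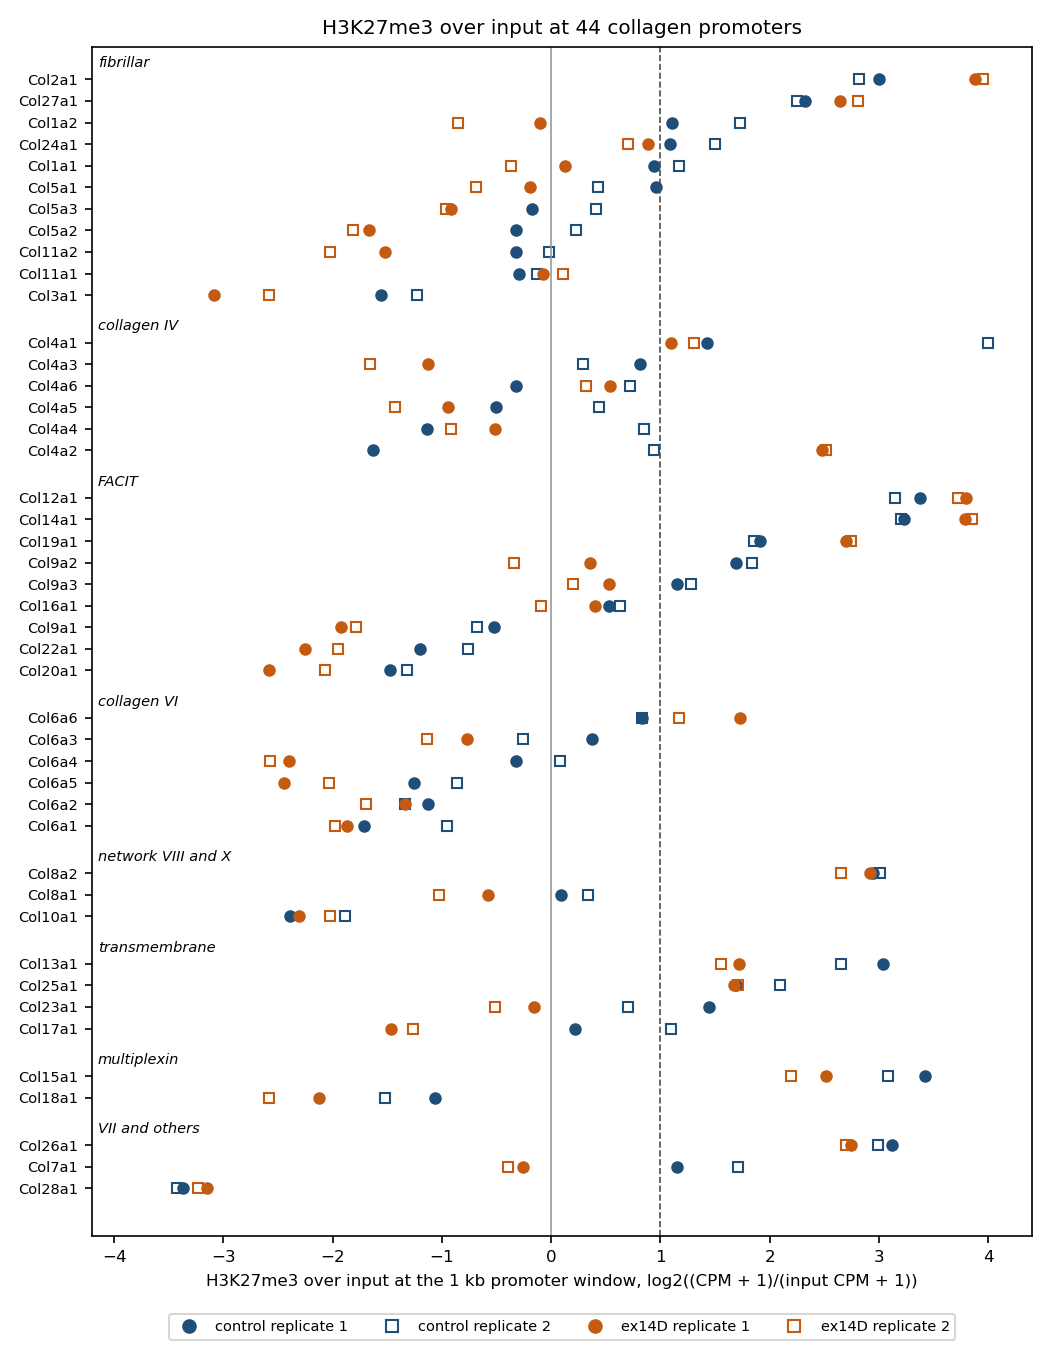
Each row is 1 of 44 collagen genes, grouped by structural class, and each point is 1 H3K27me3 library (blue control, orange ex14D). The x axis is the log2 ratio of H3K27me3 CPM to the CPM of the single input of that genotype, the solid line marks equality with input and the dashed line a 2-fold excess. By mean control ratio, chains below input stand beside enriched chains in all classes except the transmembrane class and collagen VI. The transmembrane chains lie above input on that mean, while all collagen VI chains lie under the 2-fold line in control.

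The highest mean ratios in control were at FACIT and multiplexin chains. Col12a1, a FACIT chain of tendon and ligament, had log2 ratios of 3.37 and 3.15 in control against 3.80 and 3.72 in ex14D. Col15a1, a multiplexin of basement membrane zones, had 3.42 and 3.08 in control against 2.52 and 2.19 in ex14D. Col14a1, a FACIT chain found on collagen I fibrils, had 3.23 and 3.21 in control against 3.79 and 3.85 in ex14D. For Col12a1 and Col14a1 the ex14D libraries lay above the control ones on this scale, and for Col15a1 they lay below, while its input read count was 10 in control and 17 in ex14D. Col26a1, a chain outside the large families, had 3.12 and 2.99 in control against 2.74 and 2.69 in ex14D. Col8a2 had 2.94 and 3.01 in control against 2.91 and 2.65 in ex14D. Col2a1, the fibrillar chain of cartilage, had 3.00 and 2.81 in control against 3.88 and 3.95 in ex14D. These genes stood at least 4-fold over input in all 4 libraries. Col13a1 had 3.03 and 2.65 in control against 1.72 and 1.55 in ex14D, with 27 and 38 input reads. Col27a1 had 2.32 and 2.25 in control against 2.64 and 2.81 in ex14D. Col19a1, a FACIT chain of basement membrane zones, had 1.91 and 1.86 in control against 2.70 and 2.74 in ex14D. Col27a1 and Col19a1 were higher in both ex14D libraries, and Col13a1 lower. Col25a1, a transmembrane collagen of neurons, had 1.69 and 2.09 in control against 1.68 and 1.71 in ex14D.

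Apart from Col4a1, the other genes enriched in control stood 2-fold to 4-fold over input there and under the 2-fold line in ex14D. Col9a2, a FACIT chain that coats cartilage fibrils, had 1.69 and 1.84 in control against 0.36 and -0.34 in ex14D. Its partner chain Col9a3 had 1.15 and 1.28 in control against 0.53 and 0.20 in ex14D. Col7a1, the anchoring fibril collagen of skin, had 1.15 and 1.71 in control against -0.26 and -0.39 in ex14D. All 3 had both control libraries above both ex14D libraries, and the share of all genes that separate in this way was not counted. Col1a2 had 1.11 and 1.73 in control against -0.10 and -0.85 in ex14D, with 10 input reads in control and 25 in ex14D. Col24a1, a fibrillar chain, had 1.09 and 1.502 in control against 0.88 and 0.71 in ex14D. Col1a1, the major chain of collagen I, missed the line in 1 control library with 0.94 and 1.17 in control against 0.12 and -0.37 in ex14D. These drops are in unscaled CPM, in which the H3K27me3 of the median gene also fell, as given with the tests. Enrichment in ex14D alone was seen at 2 genes. One was Col6a6, of the collagen VI family, with 0.83 and 0.83 in control against 1.73 and 1.17 in ex14D. The other was Col4a2, whose counts are described with its partner below. Col3a1 lay below input throughout, with -1.55 and -1.23 in control against -3.09 and -2.58 in ex14D. The lowest ratios of all were at Col28a1, a collagen of peripheral nerve, with -3.36 and -3.42 in control against -3.15 and -3.23 in ex14D.

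Levels differed widely within the structural classes. The fibrillar chains ranged in mean control log2 ratio from -1.39 to 2.91 and the FACIT chains from -1.40 to 3.26, with 4 of 11 and 5 of 9 enriched in control. Of the 4 transmembrane chains 2 were enriched, and 0 of the 6 collagen VI chains, whose mean control ratio reached 0.83 at most. Of the 2 multiplexins, Col15a1 was enriched and Col18a1, the source of endostatin, had -1.06 and -1.52 in control against -2.13 and -2.58 in ex14D.

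Promoter CpG content was set beside these levels, as a sequence property that the choice of genes did not use. The motif searched was CG, which reads the same on both strands, over the 300 bases of the RefSeq promoter. It occurs at least once in 94.6% of the 32851 promoters in that table and in 91.4% of the 35 collagen promoters. Collagen promoters held a median of 12 CG, against 13 over the 18193 listed genes that matched. The 17 collagen promoters with an H3K27me3 peak in all 4 libraries held a median of 20 CG (range 6 to 37), the 7 with a peak in 1 to 3 libraries 11 (3 to 16), and the 11 with a peak in none 3 (0 to 16). Over the 35 genes, CG number and mean control log2 ratio had a Spearman rho of 0.56 and a Pearson r of 0.56. The points share libraries and base composition, so this is a description. Col15a1 was high with 8 CG, while Col5a1, a fibrillar chain, held 34 CG at a mean control ratio of 0.70, and Col18a1 held 16 with no peak. The Col3a1 and Col28a1 promoters held 0 CG.

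**Figure D2:**
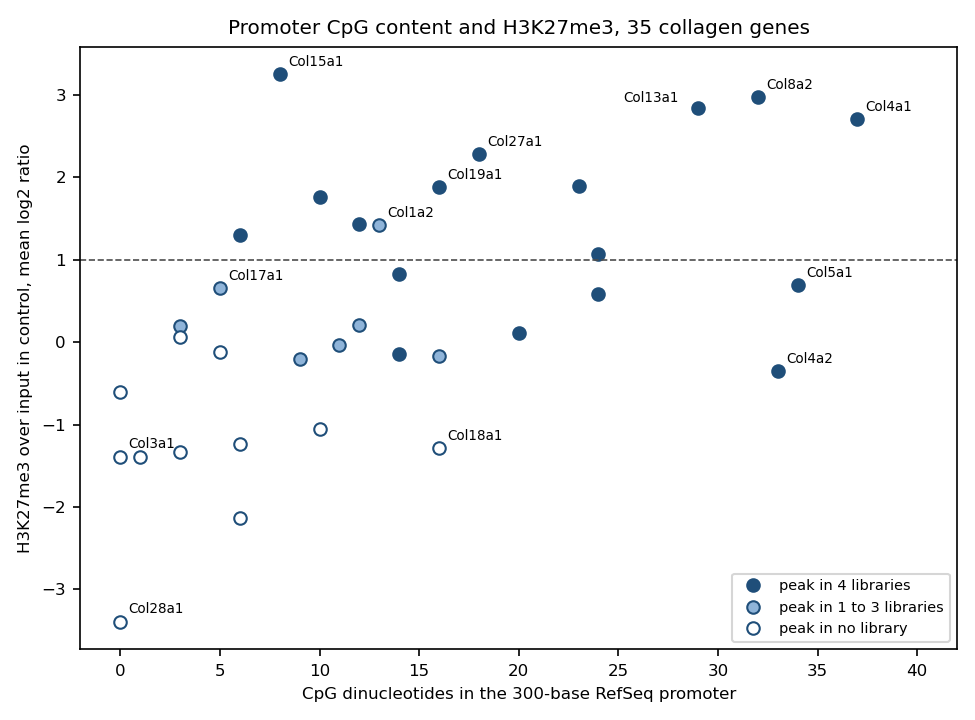
Each point is 1 of the 35 collagen genes with a RefSeq promoter. The x axis counts CG in 300 bases, the y axis is the mean log2 ratio of H3K27me3 over input in the 2 control libraries, shading gives the number of the 4 H3K27me3 libraries with a peak over the promoter and the dashed line marks a 2-fold excess. Promoters with a peak in 4 libraries hold 6 to 37 CG and those with none hold 0 to 16.

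The next comparison asked how H3K27me3 at collagen promoters differs between ex14D and control. All genes were fitted together after TMM scaling, by the quasi-likelihood test of edgeR, with Benjamini-Hochberg adjustment over the 14883 genes tested, and 41 collagen genes passed the filter on low counts. Col28a1, Col4a3 and Col4a4 did not. After this scaling a gene is measured relative to the other genes, so a change of the mark shared by all genes cannot be seen. Relative to other genes, H3K27me3 counts rose at 5 collagen promoters (Col2a1, Col12a1, Col14a1, Col19a1 and Col27a1) and fell at 1 (Col17a1) at an adjusted p under 0.05. Over all genes tested, 5.85% were higher and 3.19% lower. The median log2 fold change was -0.20 over the 41 collagen genes and -0.02 over all genes tested, and 24 of the 41 were negative (58.5%, against 51.6% of all genes).

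The genes that rose are FACIT and fibrillar chains, and each was already enriched in control. Col2a1 (chromosome 15, 97975602 to 98004724, reverse strand) had 496 and 435 CPM in control against 61.1 in its input, and 683 and 719.5 CPM in ex14D against 45.6 (log2 fold change 1.04, standard error 0.20, edgeR adjusted p = 0.000719). Col19a1 (chromosome 1, 24257683 to 24587437, reverse strand) had 214 and 206 CPM in control against 56.2 in its input, and 332 and 343 CPM in ex14D against 50.4 (log2 fold change 1.14, standard error 0.20, edgeR adjusted p = 0.000350). Both ex14D libraries lay above both control libraries at each of these genes. Col14a1 (chromosome 15, 55307751 to 55520803, forward strand) had 444 and 436 CPM in control against 46.4 in its input, and 611 and 635 CPM in ex14D against 43.2 (log2 fold change 0.95, standard error 0.19, edgeR adjusted p = 0.00156). Col12a1 (chromosome 9, 79598987 to 79718722, reverse strand) had 464 and 398 CPM in control against 43.97 in its input, and 614 and 581 CPM in ex14D against 43.2 (log2 fold change 0.92, standard error 0.20, edgeR adjusted p = 0.00246). Here too the genotypes did not overlap, though the share of all genes that separate in this way was not counted. Col27a1 (chromosome 4, 63215412 to 63334991, forward strand) had 284 and 271 CPM in control against 56.2 in its input, and 305 and 343 CPM in ex14D against 48.0, where the nearest control and ex14D libraries were close (log2 fold change 0.67, standard error 0.20, edgeR adjusted p = 0.0318). Its call was lost with DESeq2 (adjusted p = 0.0649), without the filter on low counts (adjusted p = 0.0537 from edgeR) and in other settings.

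Col17a1 was the only collagen gene whose H3K27me3 fell. Col17a1 (chromosome 19, 47646341 to 47692042, reverse strand) had 28.6 and 53.4 CPM in control against 24.4 in its input, and 12.4 and 14.4 CPM in ex14D against 36.0, from 17, 50, 18 and 18 reads (log2 fold change -1.21, standard error 0.37, edgeR adjusted p = 0.0385). Only control replicate 2 had a peak over its promoter, and without that library the log2 fold change was -0.70 with an adjusted p = 0.473 from edgeR. The 5 rises also lost their calls without control replicate 2, when these genes had log2 fold changes between 0.59 and 1.06. That fit leaves 1 control library, as does the fit without control replicate 1, where the calls of these rises were kept. There the log2 fold changes of these genes were between 0.68 and 1.14. Dependence of the rises on control replicate 2 was not tested. The directions of the whole group depend on the scaling. With library size alone the median over all genes moved from -0.02 to -0.47, and 2 collagen genes were higher (Col2a1 and Col19a1) and 9 lower, in place of 5 and 1. Of all 14883 genes tested, 398 were then higher and 2176 lower, in place of 871 and 475. The 6 named genes kept their direction under that scaling.

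**Figure D3:**
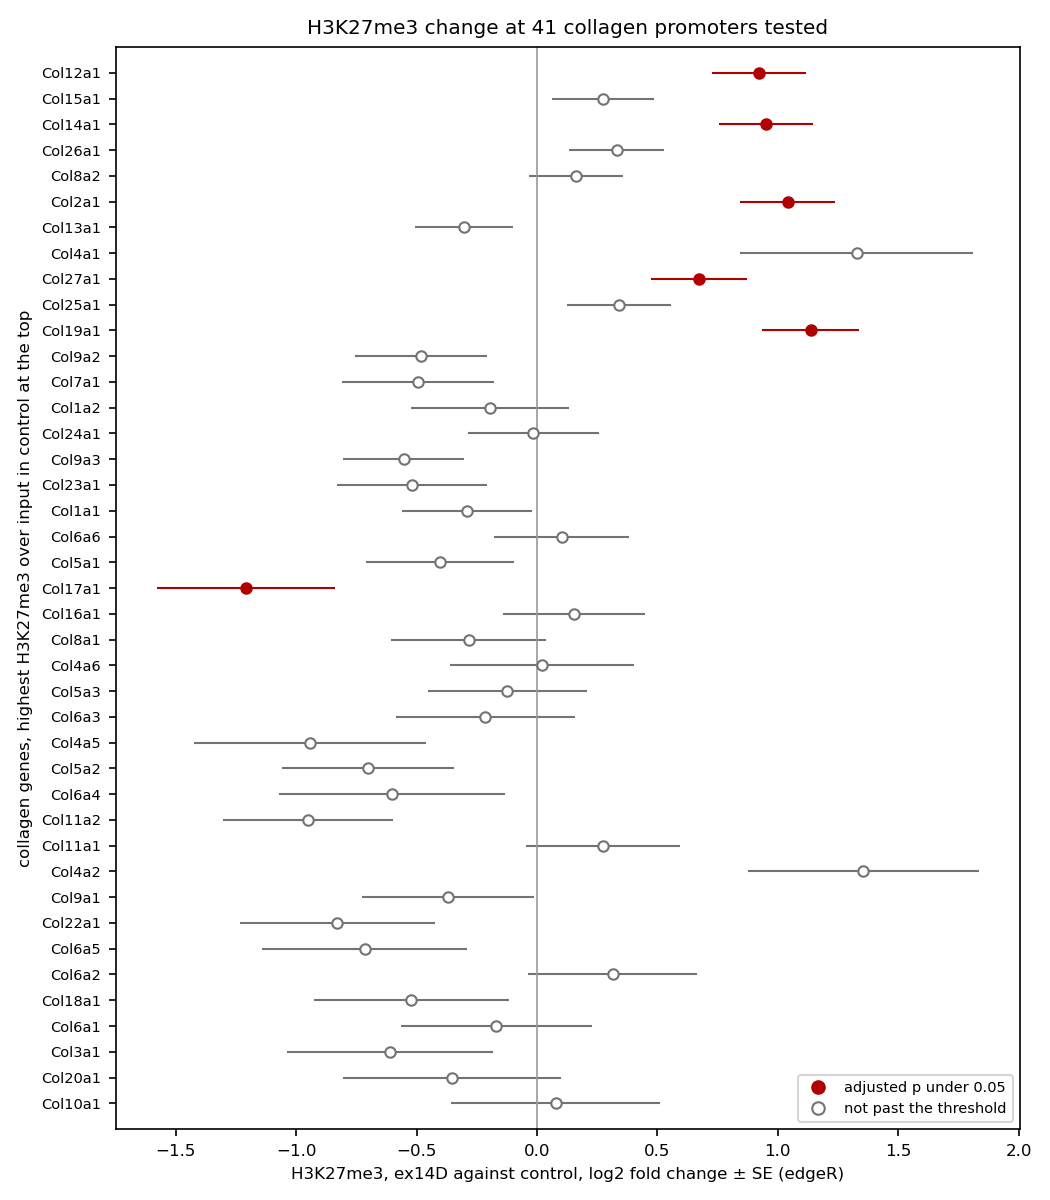
Each row is 1 of the 41 collagen genes tested, ordered by mean control H3K27me3 over input with the highest at the top. The x axis is the edgeR log2 fold change, ex14D against control after TMM scaling, with bars of 1 standard error, and filled red points have an adjusted p under 0.05. The 5 genes that rose lie in the upper part and Col17a1 is the 1 gene that fell.

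Of the 16 genes enriched in control, 5 were higher and 0 lower, with a median log2 fold change of 0.30. Among all 2658 tested genes enriched in control the median was 0.33 and 28.6% were higher. The 25 other collagen genes had a median of -0.35, with 0 higher and 1 lower, beside -0.09 over the 12225 other genes. Enrichment and change share the control libraries, so the split is a description. Among enriched genes that did not pass, Col13a1 had 547 and 419 CPM in control against 66.0 in its input, and 303 and 269 CPM in ex14D against 91.2 (log2 fold change -0.30, standard error 0.20, edgeR adjusted p = 0.445). Col15a1 had 271 and 214 CPM in control against 24.4 in its input, and 238 and 189.9 CPM in ex14D against 40.8 (log2 fold change 0.28, standard error 0.21, edgeR adjusted p = 0.521). Col8a2 had 363 and 379.9 CPM in control against 46.4 in its input, and 332 and 277 CPM in ex14D against 43.2 (log2 fold change 0.16, standard error 0.20, edgeR adjusted p = 0.716). For these the TMM-scaled difference was within 2 standard errors of 0. Col26a1 had 347 and 318 CPM in control against 39.1 in its input, and 311 and 300.5 CPM in ex14D against 45.6 (log2 fold change 0.33, standard error 0.20, edgeR adjusted p = 0.371). Col25a1 had 159.9 and 211 CPM in control against 48.9 in its input, and 171 and 175 CPM in ex14D against 52.8 (log2 fold change 0.34, standard error 0.22, edgeR adjusted p = 0.417).

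The cartilage chain Col9a3 had 131 and 144 CPM in control against 58.6 in its input, and 76.5 and 60.9 CPM in ex14D against 52.8 (log2 fold change -0.55, standard error 0.25, edgeR adjusted p = 0.202). Col9a2 had 113 and 125 CPM in control against 34.2 in its input, and 77.2 and 47.3 CPM in ex14D against 60.0 (log2 fold change -0.48, standard error 0.27, edgeR adjusted p = 0.341). Col7a1 had 55.5 and 82.2 CPM in control against 24.4 in its input, and 37.9 and 34.5 CPM in ex14D against 45.6 (log2 fold change -0.50, standard error 0.32, edgeR adjusted p = 0.415). These 3 had lower CPM in both ex14D libraries without passing the test. The CPM are unscaled, and with library size alone the median log2 fold change over all genes tested was -0.47. How many of all genes separate in this way was not counted. Col24a1 had 79.1 and 106 CPM in control against 36.6 in its input, and 71.7 and 63.3 CPM in ex14D against 38.4 (log2 fold change -0.02, standard error 0.27, edgeR adjusted p = 0.984). Col6a6 had 87.5 and 87.5 CPM in control against 48.9 in its input, and 82.0 and 55.3 CPM in ex14D against 24.0 (log2 fold change 0.10, standard error 0.28, edgeR adjusted p = 0.890). In Col6a6 the input CPM differed more between genotypes than the H3K27me3 CPM did. For collagen I, Col1a1 had 99.3 and 116 CPM in control against 51.3 in its input, and 75.8 and 53.7 CPM in ex14D against 69.6 (log2 fold change -0.29, standard error 0.27, edgeR adjusted p = 0.613). Col1a2 had 53.8 and 83.2 CPM in control against 24.4 in its input, and 55.8 and 32.9 CPM in ex14D against 60.0, and its genotypes overlapped (log2 fold change -0.20, standard error 0.33, edgeR adjusted p = 0.807). Col3a1 had 16.8 and 21.3 CPM in control against 51.3 in its input, and 7.58 and 11.2 CPM in ex14D against 72.0 (log2 fold change -0.61, standard error 0.43, edgeR adjusted p = 0.470). All 3 failed the test, and Col1a1 and Col3a1 had the lower CPM in both ex14D libraries. The log2 fold changes of all 35 genes that did not pass lay between -0.95 (Col11a2) and 1.35 (Col4a2).

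Peaks and domains show where on the genes the signal lies. MACS2 broad peaks of H3K27me3 overlapped the promoter window in both control libraries at 26 collagen genes and in both ex14D libraries at 25, against 18.0% and 16.5% of the 24368 genes placed. With peaks of q under 0.001 alone, the order turns, with 12 in control against 17 in ex14D. Peaks in all 4 libraries were found at 24 collagen genes and in none at 12, and neither count was made over all genes. EZH2 domains from hiddenDomains overlapped the window in both control libraries at 19 collagen genes and in both ex14D libraries at 14, against 16.8% and 10.4% of all genes. Of the 19 genes with control domains, 18 had an H3K27me3 peak in all 4 libraries. The matching share over all 4090 genes with a control domain was not counted.

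EZH2 domains in all 4 libraries were found at Col2a1, Col5a1 and Col27a1 among the fibrillar chains, at Col12a1, Col14a1 and Col19a1 among the FACIT chains, at Col4a1 and Col4a2, at the transmembrane chains Col13a1, Col23a1 and Col25a1, and at Col8a2, Col15a1 and Col26a1. The 5 genes whose H3K27me3 rose are all among them, and each was already enriched in control. The share of all risen genes that kept a domain was not counted. Domains over the promoter window in both control libraries and in neither ex14D library were at the fibrillar chains Col1a2 and Col24a1 and the FACIT chains Col9a2, Col9a3 and Col16a1. So 73.7% of the collagen genes with a control domain had one in both ex14D libraries, and over all 4090 such genes 61.9% did. The 5 genes with a promoter domain in neither ex14D library are 5 of 19, where 24.96% of those 4090 genes had none. At Col16a1 a domain away from the promoter still overlapped 0.277 kb of the gene in both ex14D libraries. The 5 genes without promoter domains in ex14D had mean control H3K27me3 log2 ratios of 0.58 to 1.77 and H3K27me3 log2 fold changes of -0.55 to 0.15. The 14 that kept them had ratios of -0.35 to 3.26 and fold changes of -0.52 to 1.35. A further 7 genes, among them Col1a1, Col7a1 and Col6a6, had a domain in control replicate 2 only, and 18 had none. The 4 other genes of the 7 are the collagen IV chains Col4a3, Col4a4, Col4a5 and Col4a6.

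Promoter peaks were several kb wide at the marked genes. The Col2a1 peak spanned 11.4 and 14.7 kb in control against 17.4 and 10.4 kb in ex14D, and its EZH2 domain 6 and 9 kb in control against 6 and 7 kb in ex14D. The Col8a2 peak spanned 10.1 and 12.1 kb in control against 8.98 and 6.48 kb in ex14D, and its EZH2 domain 4 and 10 kb in control against 2 and 3 kb in ex14D. A second peak and domain began further inside Col8a2 in every library. The Col13a1 peak spanned 13.8 and 12.3 kb in control against 9.19 and 8.53 kb in ex14D. Col8a2 and Col13a1 had both ex14D peaks narrower than both control peaks, and the Col2a1 widths overlapped. The Col12a1 peak spanned 5.06 and 6.11 kb in control against 5.15 and 4.09 kb in ex14D, with a domain of 4 and 5 kb in control against 4 and 4 kb in ex14D. Over the 24 genes with a peak in all 4 libraries, the median width was 4.35 and 5.94 kb in control against 3.99 and 3.51 kb in ex14D. The median fold enrichment of the same peaks was 2.83 and 2.93 in control against 6.04 and 3.79 in ex14D. Gene reads were fewest in control replicate 1, and the part of depth in these widths was not tested.

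**Figure D4:**
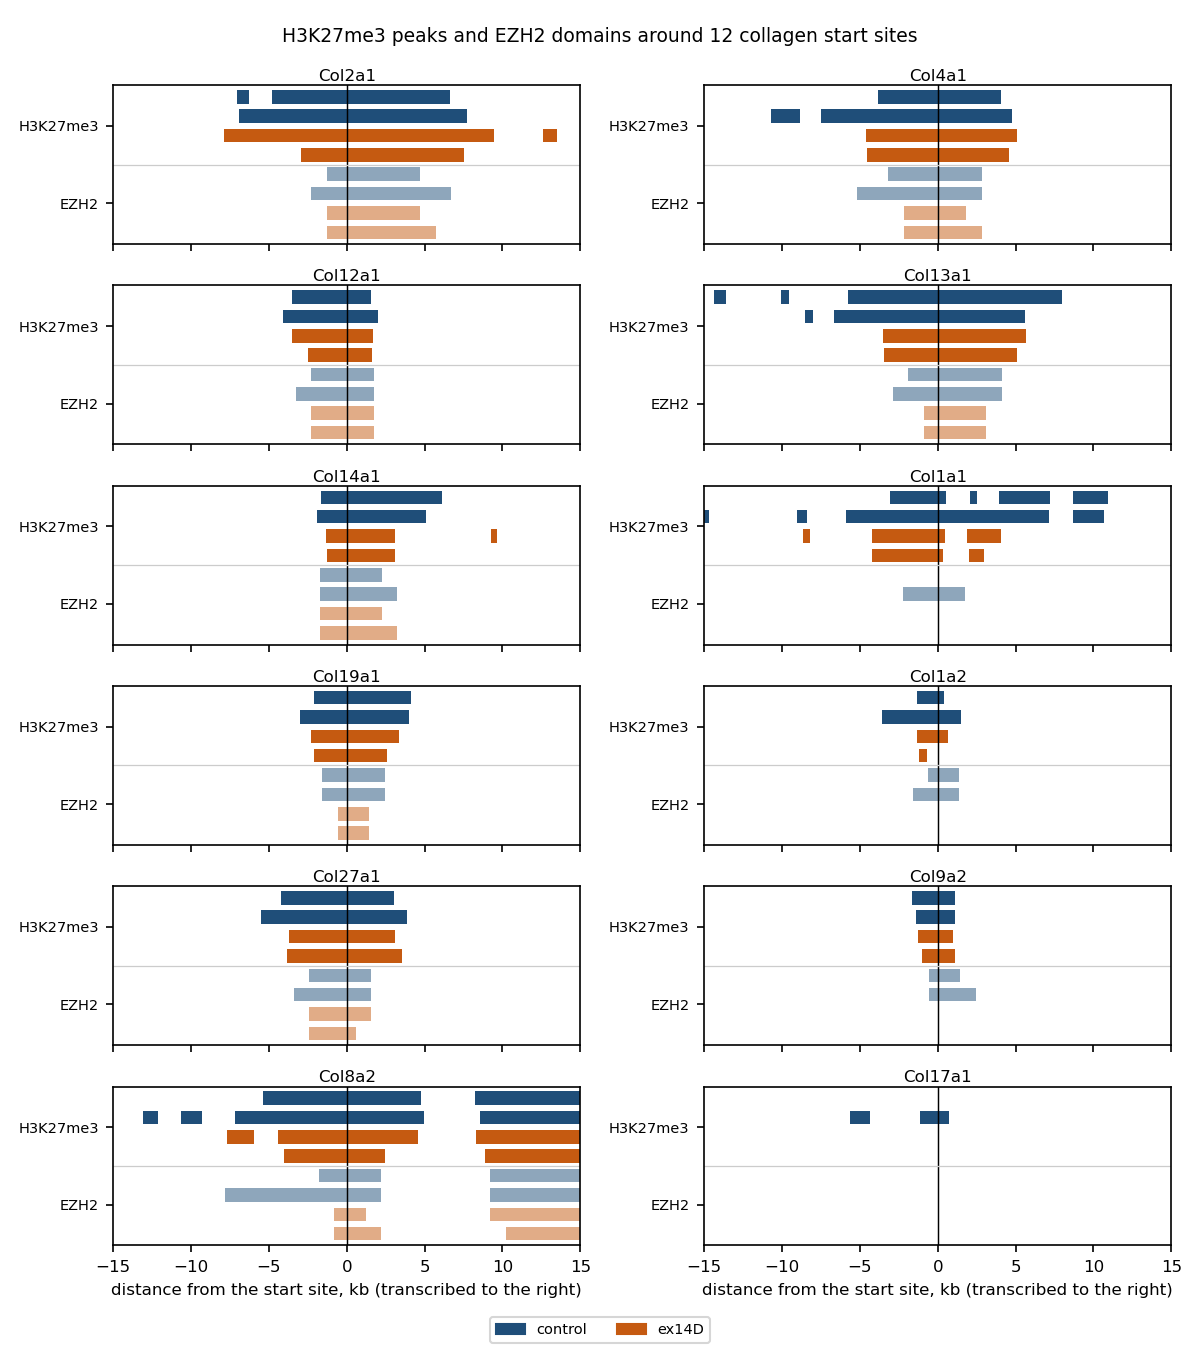
Each panel shows 1 collagen gene from 15 kb before to 15 kb after its start site, transcribed to the right. Bars are called intervals in each of 4 H3K27me3 libraries (upper rows) and 4 EZH2 libraries (lower rows), blue for control and orange for ex14D, with replicate 1 above replicate 2. Col2a1, Col12a1, Col14a1, Col19a1, Col27a1, Col8a2, Col4a1 and Col13a1 have EZH2 domains in all 4 libraries, Col1a2 and Col9a2 in the control libraries, Col1a1 in control replicate 2 and Col17a1 in none.

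The same comparison was made for EZH2 counts. Here 16 collagen genes are listed at 0 in all 4 EZH2 libraries, Col2a1, Col13a1, Col14a1 and Col1a1 among them, and could not be compared. Each lies in an unbroken run of at least 20 listed genes at 0 (103 to 1388 genes), and 43.2% of all genes are at 0, so these zeros are not read as lack of EZH2. The other 28 were tested with 13401 genes in all. EZH2 counts fell at 2, Col8a2 and Col4a1, and rose at 0, where 7.88% of all genes were lower and 0.0522% higher. At an unadjusted p under 0.05 from edgeR's quasi-likelihood test, 4 were lower and 1 was higher, beside 1692 and 452 of all 13401 genes. DESeq2 called 1 collagen gene lower and 0 higher, beside 750 and 0 of the 11852 genes it tested. The median log2 fold change was 0.03 over the 28 genes and 0.02 over all tested.

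Col8a2 (chromosome 4, 126286794 to 126314330, forward strand) stood apart. It had 1359 and 1852 EZH2 reads in control cells against 815 and 792 in ex14D, or 3.56 and 3.65 CPM per kb of gene against 2.17 and 1.75. Its EZH2 counts fell (log2 fold change -0.92, standard error 0.10, edgeR adjusted p = 0.00356), while its H3K27me3 log2 fold change was 0.16. The genotypes did not overlap, and its density over the 4 libraries was at the 95.9 percentile of the 13886 genes measured. Col4a1 (chromosome 8, 11198423 to 11312826, reverse strand) had 2157 and 2862 reads in control against 1825 and 2165 in ex14D, or 1.36 and 1.36 CPM per kb against 1.17 and 1.15 (log2 fold change -0.27, standard error 0.04, edgeR adjusted p = 0.0100). Its call was lost with DESeq2 (adjusted p = 0.303). Without control replicate 1 or control replicate 2 the log2 fold changes were -0.94 and -0.90 at Col8a2 and -0.27 in both settings at Col4a1. No gene of the table passed with edgeR in those settings (0 of 13536 and 0 of 13474 tested, beside 1372 and 1300 lower and 186 and 198 higher at an unadjusted p under 0.05), so the lost calls say nothing about these 2 genes.

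The 26 other measured genes had EZH2 log2 fold changes between -0.18 (Col4a2) and 0.16 (Col4a4). This held for Col12a1 (log2 fold change -0.08, standard error 0.05, edgeR adjusted p = 0.470), Col19a1 (log2 fold change -0.03, standard error 0.03, edgeR adjusted p = 0.714) and Col27a1 (log2 fold change -0.09, standard error 0.06, edgeR adjusted p = 0.530), whose H3K27me3 rose. The genes without promoter domains in ex14D had EZH2 log2 fold changes of -0.06 at Col1a2, 0.06 at Col24a1, 0.08 at Col9a3 and 0.04 at Col16a1. The remaining one, Col9a2, is listed at 0. These counts run over whole genes of many kb, while a domain covers a few kb at the start. Mean density over the 28 genes ran from 0.661 CPM per kb at Col28a1 to 2.78 at Col8a2, with a median of 0.999 for these genes and 0.998 for all measured genes.

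**Figure D5:**
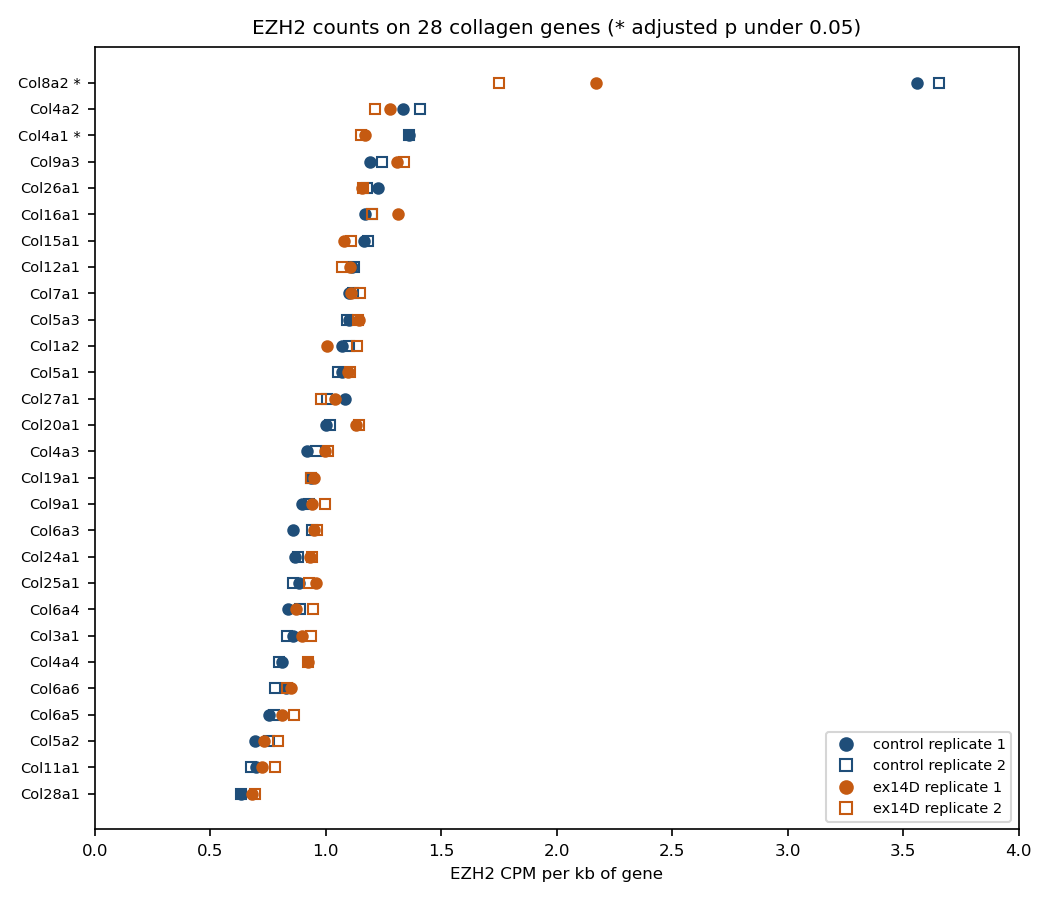
Each row is 1 of the 28 collagen genes with EZH2 counts, ordered by the control mean. The x axis is EZH2 CPM per kb of gene, with 1 point per library (blue control, orange ex14D), and an asterisk marks an edgeR adjusted p under 0.05. Col8a2 lies at 3.56 and 3.65 in control against 2.17 and 1.75 in ex14D, and the other genes lie below 1.5.

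The collagen IV genes lie in head-to-head pairs that share a promoter region. The 1 kb windows of Col4a1 and Col4a2 overlap by 979 bp and those of Col4a3 and Col4a4 by 928 bp, and by the default of htseq-count a read on both windows of a pair is counted for neither gene (the mode used is not given in the sources used here). The windows of the third pair, Col4a5 and Col4a6, do not overlap. Col4a1 had 1 and 14 H3K27me3 reads in control cells against 24 and 24 in ex14D, and Col4a2 had 1 and 14 against 26 and 23. Their inputs held 0 and 3 reads at Col4a1 and 3 and 1 at Col4a2 in control and ex14D. So their ratios over input, 1.42 and 3.99 in control against 1.10 and 1.30 in ex14D for Col4a1 and -1.63 and 0.94 in control against 2.48 and 2.51 in ex14D for Col4a2, rest on a few reads, and neither gene passed the H3K27me3 test (edgeR adjusted p = 0.0926 and 0.0810). The peaks do not split reads by gene. The peak over the Col4a1 start spanned 7.91 and 12.3 kb in control against 9.73 and 9.10 kb in ex14D, and the EZH2 domain there 6 and 8 kb in control against 4 and 5 kb in ex14D. Over the gene bodies, Col4a2 had 1.34 and 1.41 EZH2 CPM per kb in control against 1.28 and 1.21 in ex14D, lower in ex14D without passing (log2 fold change -0.18, standard error 0.05, edgeR adjusted p = 0.0766).

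Genes that act on collagen chains were counted in 4 lists. Of 17 genes that modify or fold the chains, 3 were enriched for H3K27me3 in control and 12 were tested, of which 2 were higher in ex14D and 1 lower, with a median log2 fold change of -0.21. Over all genes 11.3% were enriched in control, 5.85% of those tested were higher and 3.19% lower. At an unadjusted p under 0.05 from edgeR 4 genes of the list were higher and 4 lower, beside 1605 and 1456 of all 14883 tested. P3h2, a prolyl 3-hydroxylase, had 178 and 219 H3K27me3 CPM in control against 267 and 254 in ex14D (log2 fold change 0.83, standard error 0.20, edgeR adjusted p = 0.00834). P4ha2, a subunit of prolyl 4-hydroxylase, had 149.8 and 201 CPM in control against 225 and 209 in ex14D (log2 fold change 0.75, standard error 0.21, edgeR adjusted p = 0.0250). Both rose, with no overlap of the genotypes, though the share of all genes that separate in this way was not counted. P3h1, another prolyl 3-hydroxylase, had 7 and 9 reads in control against 1 and 2 in ex14D (log2 fold change -2.68, standard error 0.86, edgeR adjusted p = 0.0499). DESeq2 called P3h2 alone of these 3, and gave P3h1 no adjusted p. Of the 9 genes tested for EZH2, 0 passed with edgeR, DESeq2 or an unadjusted p under 0.05.

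Of 13 genes for propeptide cleavage and crosslinking, 9 were enriched for H3K27me3 in control and 8 in ex14D, and of 11 tested 1 was higher and 0 lower with edgeR and DESeq2, beside 3 higher and 1 lower at an unadjusted p under 0.05. The backgrounds are 11.3% and 9.14% enriched and 5.85% higher over all genes. At an unadjusted p under 0.05 from edgeR they are 1605 higher and 1456 lower of 14883 tested. The gene called was Lox, which crosslinks collagen, with 256 and 273 H3K27me3 CPM in control against 326 and 316 in ex14D (log2 fold change 0.73, standard error 0.20, edgeR adjusted p = 0.0180). Its relative Loxl1 had 620 and 862 EZH2 reads in control against 542 and 596 in ex14D (log2 fold change -0.31, standard error 0.07, edgeR adjusted p = 0.0381), a fall that DESeq2 did not call. EZH2 domains lay over 11 of the 13 promoters in both control libraries and over 8 in both ex14D libraries, against 16.8% and 10.4% of all genes. Of 9 collagen receptor genes, 3 were enriched for H3K27me3 in control, and of 15 laminins and other basement membrane partners 1 was. In these 2 lists 0 genes passed for either antibody with edgeR or DESeq2. At an unadjusted p under 0.05 from edgeR, H3K27me3 was lower at 1 partner gene, and EZH2 was lower at 1 receptor gene and higher at 1 receptor and 1 partner gene. For EZH2, 1692 of all 13401 genes tested were lower and 452 higher at that p. The median H3K27me3 log2 fold change was 0.15 over 7 tested receptor genes and -0.05 over 12 tested partner genes.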

How the data were processed

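ChIP-seq libraries of H3K27me3, EZH2 and input were grouped by the antibody and genotype in the labels. Per the paper's methods and the submitters' processing notes, the authors aligned reads with Bowtie or Bowtie2 to mm10 and counted them with htseq-count. They deposited raw counts, as whole numbers of reads for each gene. H3K27me3 peaks were called per library with MACS2 by the authors, who deposited a fold enrichment and a −log10 q for each. EZH2 domains from hiddenDomains were deposited as positions only, without a posterior probability. H3K27me3 domains ran past chromosome ends of GRCm38 and were not used.

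Counts were compared per antibody with edgeR 4.0.16 in R 4.3.3 (TMM scaling, the filterByExpr filter, a quasi-likelihood F test and Benjamini-Hochberg adjustment across the genes tested, with a threshold of 0.05), with the genotype as the only term. Approximate standard errors were taken from the log2 fold change and F. DESeq2 1.42.0 was an alternative. The edgeR fit alone was first tested on simulated counts. Reads on no gene (92.4% to 94.4% of an H3K27me3 library, 55.7% to 56.1% of an EZH2 library and 98.1% of an input) stayed out of library sizes. The pseudocount over input was 1 CPM. An interval counted for a gene when it overlapped the 1000 bp window around its 5′ most RefSeq start by at least 1 bp. Between libraries of a genotype the chi-square per degree of freedom was 1.49 to 4.01, so none was counted as a duplicate. The collagen genes and the lists were chosen with earlier results of these data known. Values in every library are given for genes past a threshold, enriched over input in a genotype, or among Col1a1, Col1a2, Col2a1, Col3a1, Col4a1 and Col4a2. Of each other list, up to 3 genes with the smallest adjusted p past the threshold are named. The 9 genes without a promoter sequence in the table used were Col12a1, Col14a1, Col22a1, Col26a1, Col2a1, Col1a1, Col4a3, Col5a2 and Col9a3.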

Additional observations from a re-analysis of the deposited data

How the results depend on the processing

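With 2 libraries per genotype, 2 input libraries in all and few reads at many promoters, small differences were not detectable at this depth, and a genotype with a left-out library keeps 1, which is assumed to vary like the other. For H3K27me3, 2176 of all 14883 genes tested were lower and 398 higher with library size alone, against 475 and 871 after TMM scaling. Among collagen genes 9 were lower with library size alone, 0 with DESeq2 (where Col17a1 had no adjusted p) and 0 with the replicate block, against 1. At an unadjusted p under 0.05 from edgeR, 3 collagen genes were lower, beside 1456 of all genes tested. Leaving out each library gave 0 to 2 lower and 0 to 5 higher, and library size alone gave 2 higher, against 5. The median log2 fold change of -0.20 was -0.64 with library size alone and ranged from -0.22 to 0.0567 over the left-out libraries, positive without control replicate 2. For EZH2, the number lower was 1 by DESeq2, against 2, and 4 at unadjusted p under 0.05, with 0 to 5 over the left-out libraries, where no gene at all passed without either control library. The number higher was 1 with library size alone, 1 at an unadjusted p under 0.05 and 0 to 2 over the left-out libraries, against 0. Of all 13401 genes tested for EZH2, 1692 were lower and 452 higher at an unadjusted p under 0.05 from edgeR. With library size alone 955 were lower and 47 higher. The EZH2 median of 0.03 over the collagen genes was 0.0754 with library size alone, 0.0644 with all counted reads as library size and 0.00751 to 0.0497 over the left-out libraries. Enriched promoters in control numbered 8 at a 4-fold ratio, against 16, and promoters with a control peak 12 at q under 0.001, against 26. In ex14D these were 9, against 13, and 17, against 25, so the order of the genotypes turned in both. The cause of these shifts was not tested. Among the values of single genes, 24 lost their call in a setting, 55 kept it and 0 changed direction. The replicate numbers in the labels did not pair the libraries, since the deviations of same-numbered libraries correlated at -0.0976 for H3K27me3 and 0.0524 for EZH2. With the replicate block, 6 collagen genes were higher for H3K27me3, Col17a1 and Col27a1 lost their calls (edgeR adjusted p = 0.0714 and 0.0698), and for EZH2 2 were lower and 0 higher, beside a median of 0.03.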

Other observations

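H3K27me3 peaks also lay inside collagen genes, away from the start. At Col16a1, a FACIT chain of skin and other tissues, peaks covered 43.0% and 60.1% of the gene with its first 500 bp upstream in control and 53.6% and 37.6% in ex14D, although the promoter window was under 2-fold over input. At Col1a1 they covered 40.4% and 55.6% in control and 18.1% and 10.4% in ex14D. At Col8a2 they covered 56.9% and 53.9% in control and 49.3% and 40.0% in ex14D. Summed over the 44 genes, peaks covered 148 and 206 kb in 30 and 34 genes in control and 144 and 107 kb in 31 and 26 genes in ex14D. Of the 12 genes without a promoter peak, 7 had no peak in the gene in any library, Col3a1, Col10a1, Col18a1 and Col28a1 among them. These sums move with how much was called in each library, and no test was made. EZH2 domains covered 55.8 and 82.5 kb in control and 41.3 and 46.3 kb in ex14D.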
